A study of Mus musculus with 4 samples.

Results

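Each of the 4 single-cell libraries in this series carried 4 antibody tags, and the comparison described here sets the cells of tags 1 and 3 against the cells of tags 2 and 4 inside each library. An antibody tag is an oligonucleotide on an antibody that binds the cell surface, so that several cell suspensions can be mixed, captured together and told apart afterwards. No key ties the 4 tags to a mouse, a replicate or a passage in the sources used here, so the tags are called by their order in the files and are given no identity. A cell was assigned to its most abundant tag when that tag had at least 3 times the UMIs (unique molecular identifiers, 1 per captured RNA molecule) of the second tag. Of 33268 cell barcodes, 17360 held between 1000 and 6000 genes with under 5% mitochondrial UMIs, and 15881 of these (91.5%) were assigned, 10871 to tags 1 and 3 and 5010 to tags 2 and 4. Compared with looser limits, those used kept a smaller share of tags 2 and 4 than of tags 1 and 3 in every library. The tag ratio cut few cells: 365 had a ratio of 2 to 3 and 237 a ratio of 3 to 4.

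The cells came from organoids grown from mammary glands of female mice, either wild type or with a germline truncating mutation on 1 allele of Brca2 (Brca2mut/WT), and either untreated or treated with hydroxyurea (HU), which depletes nucleotides and stalls replication forks. Each of the 4 conditions, wild-type control, wild-type HU, Brca2mut/WT control and Brca2mut/WT HU, is 1 library whose label names 2 replicates. The study's design also holds an early passage (0) and a late one (4), with organoids from several mice, cryopreserved, thawed and cultured before dissociation. Library totals were between 243430259 and 302135155 gene UMIs. Between 16 and 30 barcodes occurred in both libraries of a pair. The 4 tags of a library were captured together, so they share its free RNA and its depth.

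The mammary epithelium has an outer basal layer, which contracts and contacts the basement membrane, and an inner luminal layer. Luminal cells divide into hormone receptor-positive (HR+) cells, which sense oestrogen and progesterone and release amphiregulin (Areg), and hormone receptor-negative (HR-) cells, which include luminal progenitors and the alveolar cells that make milk. The tumour suppressor p53 is a transcription factor that is stabilised after DNA damage and replication stress. It binds paired copies of a short DNA element and switches on genes that halt the cycle (Cdkn1a), restrain p53 itself (Mdm2) or favour cell death (Bax). HR- luminal cells were taken here as cells with Krt14 and Areg both below 300 CPM (UMIs of a gene per 1000000 gene UMIs), 13046 in all, 9770 in tags 1 and 3 and 3276 in tags 2 and 4. Krt14 and Areg set these limits and are given as no result.

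Within each library the gene UMIs of the cells of 1 tag were summed into a pool, which gave 8 pools a side, and expressed as CPM. The HR- luminal pools held between 141 and 1779 cells and between 3691377 and 44279844 UMIs. A difference is the mean log2(CPM + 1) of tags 1 and 3 minus that of tags 2 and 4 in the same library, averaged over the 4 libraries and given ± SD (n = 4 libraries), so that a negative value is a higher level in tags 2 and 4. A gene is called separated when, in each of the 4 libraries, both pools of one side lay above both pools of the other. The pairing of the tags was chosen by gene levels of these pools, and there is 1 library per condition, so every value is a description and no p-value is given. A pool's level cannot tell fewer expressing cells from less RNA per cell.

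The sides were uneven in cells kept and in composition. With no upper gene limit and under 10% mitochondrial UMIs, wild-type control held 2526, 688, 2202 and 1917 assigned cells in tags 1 to 4. Under the limits used it held 1972, 319, 1739 and 877. In Brca2mut/WT HU these numbers were 1736, 1437, 1494 and 777 against 1152, 451, 1024 and 302. Tags 1 and 3 were 87.4% to 93.0% HR- luminal in every library. Tag 4 was lower in each. Its share was 48.7% (exact 95% interval 45.3% to 52.1%) in the control and 57.2% (52.6% to 61.6%) in the HU library of the wild type, and 65.6% (61.8% to 69.2%) and 46.7% (41.0% to 52.5%) in those of Brca2mut/WT. The intervals cover counting error only. Tag 2 did not follow tag 4 in the Brca2mut/WT libraries. It was 67.7% (62.3% to 72.8%) and 53.2% (50.3% to 56.1%) HR- luminal in the wild-type control and HU libraries, and 98.5% (97.4% to 99.3%) and 93.8% (91.2% to 95.8%) in the Brca2mut/WT ones, above both tag 1 and tag 3. The share in tags 1 and 3 minus that in tags 2 and 4 was 32.0 and 34.4 points in the wild-type libraries and 8.51 and 18.4 points in the Brca2mut/WT libraries, 23.3 ± 12.1 points over the 4 libraries. Cells over the Krt14 limit, which are basal or hold basal RNA, made up 5.9% to 11.7% of tags 1 and 3 and 1.1% to 43.8% of tags 2 and 4, and cells over the Areg limit 0.29% to 1.3% and 0.40% to 25.8%. Just under the Krt14 limit, at 150 to 300 CPM, lay 746 and 439 cells of the wild-type control and HU libraries and 93 and 81 of the Brca2mut/WT ones.

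**Figure D1:**
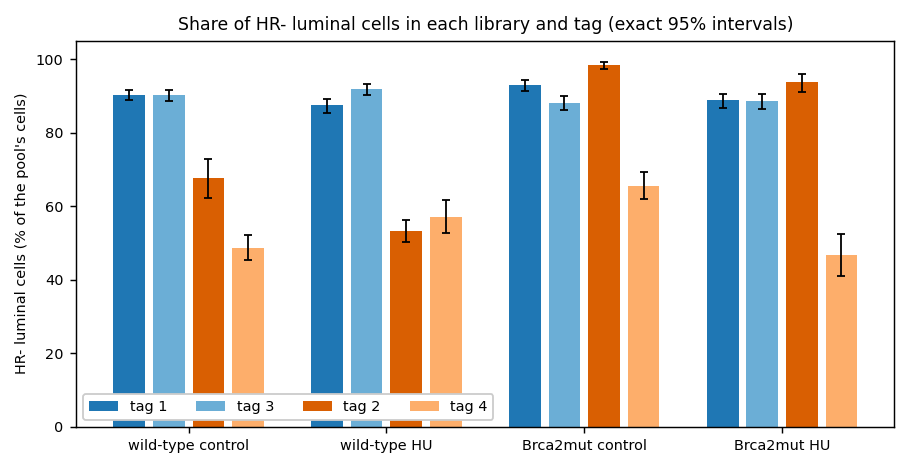
Share of assigned cells that were HR- luminal (vertical axis, percent) for each tag in each of the 4 libraries, with exact 95% binomial intervals as bars. Tags 1 and 3 sit between 87.4% and 93.0% throughout, tag 4 between 46.7% and 65.6%, and tag 2 at 53.2% and 67.7% in wild-type and 93.8% and 98.5% in Brca2mut/WT libraries.

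Inside the HR- luminal limits, tags 1 and 3 were near copies of each other, and tags 2 and 4 of the Brca2mut/WT libraries were not. The SD used here also holds counting error, which is larger in smaller pools. Tags 2 and 4 were the smaller pools in every library. In wild-type control they held 6078096 and 12294954 UMIs, against 44279844 and 38539153 in tags 1 and 3. The part of pool size in these distances was not tested. The SD over 7659 genes of the log2 difference between the tag 1 and tag 3 pools of a library was 0.12 to 0.14, and 1, 3, 7 and 8 genes differed by more than 2-fold in wild-type control, wild-type HU, Brca2mut/WT control and Brca2mut/WT HU. Between tags 2 and 4 the SD was 0.27 and 0.22 in the wild-type libraries and 0.61 and 0.70 in the Brca2mut/WT libraries, where 521 and 637 genes differed by more than 2-fold. A pool of one side against a pool of the other in the same library gave 0.36 to 0.71. For tags 1 and 3 this is more than the distance to a library of the other treatment or genotype. Each condition is 1 library, so treatment and genotype cannot be told apart from library here. The same tag in the other treatment of one genotype gave 0.18 to 0.22. Tags 1 and 3 of one genotype against those of the other gave 0.14 to 0.24. Tags 2 and 4 gave larger distances between libraries. Between genotypes tag 2 gave 0.45 to 0.66 and tag 4 0.31 to 0.43, which overlaps the distances between the sides. Between treatments tag 2 gave 0.30 to 0.43 and tag 4 0.29 to 0.345. Tags 1 and 3 thus form one compact set of 8 pools. Tag 2 and tag 4 of the Brca2mut/WT libraries stood as far apart as the sides themselves. In these libraries tag 4 lay nearer to tags 1 and 3 than to tag 2. Its distances to tags 1, 3 and 2 were 0.365, 0.386 and 0.607 in control and 0.476, 0.505 and 0.702 in HU.

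**Figure D2:**
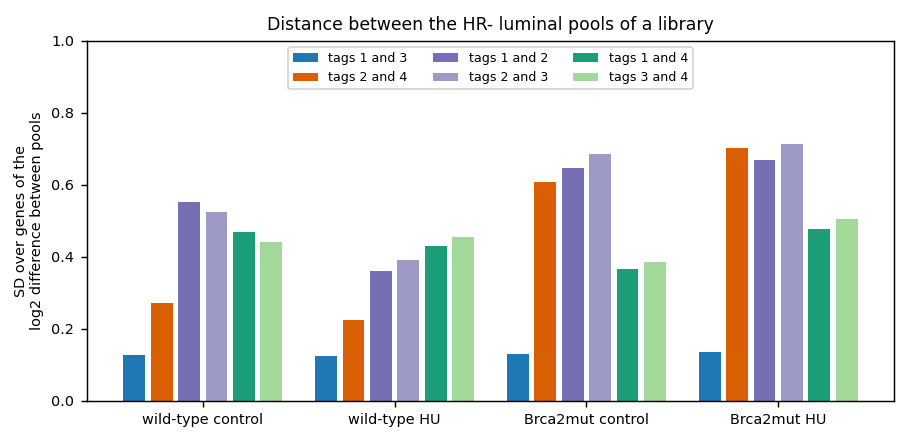
Distance between the HR- luminal pools of each library (vertical axis, SD over 7659 genes of the log2 difference between 2 pools), each bar a pair of tags. Bars for tags 1 and 3 reach 0.12 to 0.14, bars for tags 2 and 4 reach 0.22 to 0.70, and bars for one tag from each side 0.36 to 0.71.

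The share of cells with G2/M UMIs moved with the sides, and depth did in 3 of the libraries. The median HR- luminal cell of a pool held 23699 to 28744 UMIs in tags 1 and 3 and 26175 to 29924 in tags 2 and 4, with 4474 to 5031 and 5059 to 5335 genes. In Brca2mut/WT HU the order of UMIs was the other way, at 28510 and 28744 in tags 1 and 3 and 28226 and 27869 in tags 2 and 4. Cells with at least 5 UMIs of G2/M genes made up 7.9% to 11% of tags 1 and 3 and 12.8% to 27.8% of tags 2 and 4. This count was not scaled for depth. The summed CPM of the 11 tested G2/M genes put both tags 2 and 4 on top in wild-type control and Brca2mut/WT HU only. It was 293, 218, 174 and 251 in tags 1 to 4 of wild-type HU, and 307, 362, 242 and 228 in Brca2mut/WT control. The part of depth was not tested beyond the thinned values given below, and that of cycling beyond the values without cycling cells.

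The marker genes of the HR- luminal compartment were present on both sides. Krt8, Krt18, Epcam and Elf5 were not separated. Of these, only Elf5 is among the HR- luminal genes that the study names. Elf5, a transcription factor of alveolar progenitors, was at 88.6 to 127 CPM in tags 1 and 3 and 80.6 to 146 CPM in tags 2 and 4. Kit, Cd14 and Lalba, also named there, were not separated, with differences of 0.58 ± 0.45, 0.75 ± 0.79 and 1.24 ± 1.07. The summed level of the 9 HR- luminal markers was 10535 to 11361 CPM in tags 1 and 3 and 6620 to 8603 CPM in tags 2 and 4. Mfge8, which coats milk fat globules, was separated with a difference of 0.94 ± 0.21. It made up much of that sum, at 4692 to 5631 CPM against 1684 to 3534 CPM. In tag 2 of the Brca2mut/WT libraries the progenitor markers Aldh1a3 and Cd14 were low, at 3.1 and 27.9 CPM in control and 2.6 and 33.3 CPM in HU, while Kit, a receptor of progenitors, was at 123.7 and 68.2 CPM. The 7 HR+ markers summed to 132 to 165 CPM against 147 to 718 CPM. Among them Pgr was higher in tags 2 and 4 and apart in all 16 pools (median 1.13 against 5.79 CPM, -1.599 ± 0.448). Foxa1 was at -1.584 ± 0.533 and not separated. Both genes had a mean under 10 CPM. Prlr, Esr1, Ly6a and Cited1 were not separated. The sides were therefore not equal in HR+ RNA inside the HR- luminal limits. The 9 basal markers summed to 169.7 to 256 CPM against 63.5 to 570.2 CPM, and the 6 fibroblast markers to 3.1 to 6.3 CPM against 4.0 to 54.6 CPM. Endothelial markers stayed at or below 2.1 CPM and immune markers at or below 0.81 CPM, with Ptprc and C1qa at 0 in all pools, and red cell markers reached 6.75 CPM in tag 2 of wild-type control. With cells holding Krt5 of at least 100 CPM or any Foxa1 or Pgr UMI also left out, 485 genes were separated towards tags 1 and 3 and 2024 towards tags 2 and 4, a choice made after the data were seen.

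Of 7659 genes with a mean of at least 10 CPM over the 16 HR- luminal pools, 505 (6.59%) were separated with the higher level in tags 1 and 3 and 2271 (29.7%) with the higher level in tags 2 and 4. This split depended on the scaling, since the median gene differed by -0.15 (-0.11 to -0.18 in the 4 libraries). TMM scaling moved the median to 0.00 and gave 1169 and 1100 separated genes, and DESeq2 size factors moved it to -0.02 and gave 1060 and 1216. The share of separated genes that were higher in tags 1 and 3 was 18.2% in CPM, 51.5% with TMM and 46.6% with DESeq2 size factors. Differences below are in CPM, and a list with a median near -0.15 lies at the middle of all genes. Separated genes that differed by more than 2-fold numbered 96 towards tags 1 and 3 and 72 towards tags 2 and 4. In 276 genes (3.6%) all 8 pools of tags 1 and 3 lay above all 8 of tags 2 and 4, and in 1423 (18.6%) all 8 lay below. Many calls were narrow: in 618 separated genes the smallest gap between the sides was at most 0.05 on the log2 scale, and 684 genes missed separation by no more than that.

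Fcgbp, a mucin-like secreted protein that binds the Fc part of IgG, differed most (ENSMUSG00000047730, chr7:28071236-28120862, plus strand, mm10). Its level was 309 to 837 CPM (median 526) in tags 1 and 3 and 10.0 to 46.2 CPM (median 17.1) in tags 2 and 4, a 24.5-fold difference that was between 16.2-fold and 32.8-fold in the single libraries. The 2 sets of pools did not overlap. After each cell was thinned to 5000 UMIs, 71.2%, 54.4%, 66.0% and 46.0% of HR- luminal cells of tags 1 and 3 held an Fcgbp UMI in wild-type control, wild-type HU, Brca2mut/WT control and Brca2mut/WT HU, against 20.4%, 7.47%, 9.63% and 3.5% in tags 2 and 4. Without thinning the shares were 91.5%, 78.3%, 85.6% and 73.3% against 61.6%, 32.6%, 36.5% and 19.3%. Cells of tags 2 and 4 over the Krt14 limit, at median depths of the same order (27081 UMIs against 29362 in wild-type control), held an Fcgbp UMI at thinned shares of 20.3%, 6.89%, 9.40% and 0% (0 of 99 cells, which allows a share of up to 3.03%). In tags 1 and 3 such cells held it more often in every library, at thinned shares of 4.7% to 28.8%. HR- luminal cells of tags 2 and 4 thus held Fcgbp about as often as the Krt14-high cells beside them in the first 3 libraries, and the part of free RNA was not tested.

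Ecrg4, a secreted precursor of a growth-restraining peptide, was at 484 to 667 CPM (median 578) against 4.70 to 216 CPM (median 69.2), with no overlap and a difference of 3.74 ± 1.22. It was lowest in tag 2 of the Brca2mut/WT libraries, at 4.70 and 6.76 CPM. The casein gene Csn1s1 was at 1073 to 2251 CPM (median 1699) against 23.5 to 804 CPM (median 277), a difference of 3.09 ± 0.90. Apod, a lipid-carrying lipocalin, was at 621 to 1091 CPM against 27.5 to 354 CPM (2.73 ± 1.20), and Plb1, a phospholipase, at 83.6 to 141 CPM against 6.57 to 33.0 CPM (2.54 ± 0.50). Fads1, a desaturase that makes polyunsaturated fatty acids, was at 53.4 to 65.6 CPM against 2.65 to 27.6 CPM (2.25 ± 0.59). Lrg1, a secreted leucine-rich glycoprotein, was at 371 to 491 CPM against 52.8 to 157 CPM (2.14 ± 0.46). In all of these the 2 sets of 8 pools stood apart.

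Rflna, Cyba (a subunit of the NADPH oxidase) and Crip1 were also apart in all 16 pools, with differences of 2.42 ± 0.70, 2.13 ± 0.67 and 2.11 ± 0.35. H2-Ab1, the beta chain of an MHC class II molecule, was at 53.8 to 101 CPM against 3.19 to 66.8 CPM, and Espn, an actin-bundling protein, at 73.4 to 158 CPM against 12.3 to 115 CPM. Both were separated inside each library, with differences of 2.28 ± 0.78 and 2.03 ± 0.53, yet the 8 pools a side overlapped. Their highest level on the side of tags 2 and 4 was in tag 2 of Brca2mut/WT control.

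Genes higher in tags 2 and 4 fell into those shared by both tags and those that 1 tag carried. Ckb, brain-type creatine kinase (ENSMUSG00000001270, chr12:111669361-111672338, minus strand, mm10), was at 7.99 to 16.4 CPM (median 10.4) in tags 1 and 3 and 29.4 to 139 CPM (median 71.3) in tags 2 and 4. The sets did not overlap, and the difference was -2.48 ± 0.31. Thinned shares of HR- luminal cells with a Ckb UMI were 3.8% to 5.4% in tags 1 and 3 and 16.2% to 35.4% in tags 2 and 4, and 14.6%, 14.3%, 16.1% and 20.5% against 53.8%, 37.9%, 61.7% and 69.3% without thinning. By tag, the thinned shares of tags 2 and 4 were 24.3% and 20.6% in wild-type control and 15.1% and 18.8% in wild-type HU. In the Brca2mut/WT libraries tag 2 carried most of it. Tags 2 and 4 there were at 40.6% and 8.53% in control and 43.2% and 12.9% in HU. Cells over the Krt14 limit held Ckb at thinned shares of 8.4% to 25.4%, between the HR- luminal shares of the sides in part, so no background can be read from them.

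Sez6 (ENSMUSG00000000632, chr11:77930800-77979048, plus strand, mm10) was at 5.66 to 10.9 CPM in tags 1 and 3, and at 105.1 and 132 CPM in tags 2 and 4 of wild-type control, 9.82 and 25.8 CPM in wild-type HU, 231 and 13.9 CPM in Brca2mut/WT control, and 319 and 17.1 CPM in Brca2mut/WT HU. The mean difference of -2.54 ± 0.89 therefore rests on tag 2 in the Brca2mut/WT libraries and on both tags in wild-type control, and the 8 pools a side overlapped. Fetub showed the same order, at 5.43 to 12.6 CPM in tags 1 and 3, 289 and 203 CPM in tag 2 of the Brca2mut/WT libraries and 14.5 to 48.1 CPM in the other pools of tags 2 and 4. Tbx3, a T-box transcription factor of the mammary epithelium, was at 5.75 to 8.82 CPM against 10.2 to 107 CPM with no overlap (-2.05 ± 0.65), again highest in tag 2 of Brca2mut/WT control and HU at 107 and 80.5 CPM. Limch1 and Mfsd4a were apart in all 16 pools, with differences of -2.48 ± 0.95 and -1.65 ± 0.47.

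Hmox1, the haem oxygenase induced by oxidative stress, was at 4.45 to 9.53 CPM against 7.73 to 157 CPM, separated in each library but overlapping over all pools (-2.0 ± 0.80). Its highest level, 157 CPM, was in tag 4 of Brca2mut/WT HU. Atf3, a stress-induced transcription factor, was at 7.22 to 23.1 CPM against 24.7 to 69.6 CPM (-1.52 ± 0.58), Tnfrsf12a, the receptor of TWEAK, at 35.0 to 46.4 CPM against 67.5 to 249 CPM (-1.75 ± 0.58), and Snhg15, a short-lived small nucleolar RNA host gene, at 7.19 to 10.4 CPM against 18 to 86.4 CPM (-2.10 ± 0.67), each with no overlap. Cxcl1, a neutrophil-attracting chemokine, and Thrsp, a lipogenic regulator, were separated with differences of -1.52 ± 0.60 and -1.50 ± 0.48, and their pools overlapped.

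**Figure D3:**
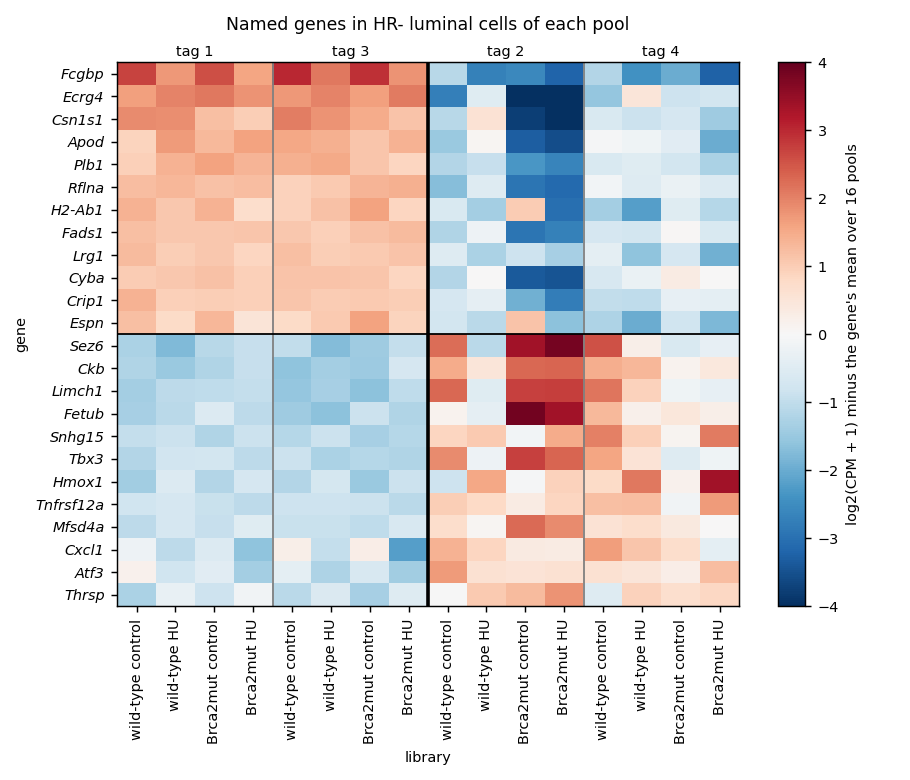
Heat map of 24 separated genes of at least 20 CPM (rows, the 12 largest differences each way) in the 16 HR- luminal pools (columns by tag and library), coloured by log2(CPM + 1) minus the gene's mean over the pools, red above and blue below. In the lower block Sez6, Ckb, Limch1, Fetub, Tbx3, Mfsd4a and Thrsp are reddest in tag 2 of a Brca2mut/WT library, and Snhg15, Hmox1 and Tnfrsf12a in tag 4 of Brca2mut/WT HU. Fcgbp spans 309 to 837 CPM in tags 1 and 3 and 10.0 to 46.2 CPM in tags 2 and 4, and Ckb 7.99 to 16.4 CPM and 29.4 to 139 CPM.

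Most of the p53 targets were higher in tags 2 and 4, some of them by nearly the same amount in every library. Of 20 genes listed 16 were tested, and 11 were separated, all towards tags 2 and 4 (all genes 29.7%), with a list median of -0.76 beside -0.15 for all genes. The count was 11 under TMM and under DESeq2 size factors too, with medians of -0.61 and -0.63. Cdkn1a, the p21 inhibitor of cyclin-dependent kinases (ENSMUSG00000023067, chr17:29090976-29100727, plus strand, mm10), was at 121 to 203 CPM (median 158) in tags 1 and 3 and 320 to 566 CPM (median 461) in tags 2 and 4. No pool of one side reached the other, and the difference was -1.47 ± 0.08, between -1.39 and -1.55 in the 4 libraries. Bax, a pore-forming protein of the mitochondrial death pathway (ENSMUSG00000003873, chr7:45461697-45466898, minus strand, mm10), was at 86.6 to 137 CPM against 226 to 342 CPM, a difference of -1.33 ± 0.02. Aen, an apoptosis-enhancing nuclease, was at 6.1 to 12.2 CPM against 14.6 to 32.2 CPM, a difference of -1.34 ± 0.08.

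The other separated p53 targets were Zmat3, an RNA-binding regulator of splicing (-1.12 ± 0.08), Phlda3, a repressor of Akt (-1.08 ± 0.04), Ccng1 (-0.88 ± 0.11), Btg2, an antiproliferative factor (-0.86 ± 0.40), Trp53inp1 (-0.80 ± 0.12), Mdm2, the ligase that degrades p53 (-0.72 ± 0.14), Ei24 (-0.52 ± 0.06) and Sesn2 (-0.48 ± 0.19). Plk2 (-0.43), Bbc3 (-0.31), Tnfrsf10b (-0.31), Perp (-0.07) and Fas (0.27) were not. The list median was -0.58, -0.83, -0.66 and -0.80 in wild-type control, wild-type HU, Brca2mut/WT control and Brca2mut/WT HU. Set against tags 1 and 3, tag 2 alone gave list medians of -0.59 to -0.95 and tag 4 alone -0.61 to -0.93, so both tags carried the difference in each library. The median SD over libraries was 0.24 among the 435 separated genes that differed by more than 0.7, and 43 of those had an SD of at most 0.1, among them Cdkn1a, Bax, Aen, Zmat3 and Phlda3.

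Cells as well as pools differed. At 5000 UMIs a cell, the median HR- luminal cell held 3 or 4 UMIs of the 16 p53 targets in all 8 pools of tags 1 and 3 and 6 to 9 in the 8 pools of tags 2 and 4. Thinned shares of cells with a Cdkn1a UMI were 29.7%, 35.9%, 30.5% and 36.1% in tags 1 and 3 against 53.5%, 68.4%, 63.2% and 72.0% in tags 2 and 4, and without thinning 59.5%, 63.3%, 58.1% and 67.2% against 87.7%, 90.7%, 87.6% and 92.2%. Leaving out cells with at least 5 G2/M UMIs gave a list median of -0.80 with 11 separated targets, and thinned pools gave -0.77 with 10. With cells holding Krt5, Foxa1 or Pgr left out the median was -0.81.

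The promoters of 3 separated p53 targets are shown because they carry the p53 element, 3 purines, C, A or T in 2 positions, G and 3 pyrimidines, of which 2 copies make a full site. They are RefSeq windows on GRCm38.p6 from 250 bases before to 50 after the annotated start, 5′ to 3′ on the gene's strand, with each match in capitals. The Cdkn1a window is chr17:29090729-29091028 on the plus strand, the Bax window chr7:45466849-45467148 on the minus strand and the Aen window chr7:78895677-78895976 on the plus strand.
Cdkn1a: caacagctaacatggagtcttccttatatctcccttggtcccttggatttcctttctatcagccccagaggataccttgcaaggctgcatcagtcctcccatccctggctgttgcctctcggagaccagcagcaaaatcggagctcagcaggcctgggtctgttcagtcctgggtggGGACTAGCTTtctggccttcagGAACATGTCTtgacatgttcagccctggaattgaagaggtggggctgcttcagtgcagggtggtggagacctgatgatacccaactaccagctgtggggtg
Bax: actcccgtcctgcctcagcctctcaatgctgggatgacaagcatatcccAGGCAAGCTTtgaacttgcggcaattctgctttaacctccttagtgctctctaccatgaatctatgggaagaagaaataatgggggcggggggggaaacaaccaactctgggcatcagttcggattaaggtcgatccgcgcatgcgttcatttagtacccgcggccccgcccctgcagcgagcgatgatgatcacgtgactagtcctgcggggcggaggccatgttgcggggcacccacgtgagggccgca
Aen: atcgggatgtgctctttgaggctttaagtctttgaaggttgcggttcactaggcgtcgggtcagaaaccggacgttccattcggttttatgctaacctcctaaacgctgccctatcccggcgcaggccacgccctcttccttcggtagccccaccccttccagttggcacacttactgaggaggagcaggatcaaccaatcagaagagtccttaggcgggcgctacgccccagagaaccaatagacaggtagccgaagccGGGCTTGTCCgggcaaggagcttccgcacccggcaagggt
The element is its own reverse complement and was searched on both strands. It occurred in 6 of the 12 tested p53 targets with a window (Cdkn1a, Mdm2, Ccng1, Bax, Ei24 and Aen), in 6 of the 9 separated ones, and in 2261 of 27025 windows searched (8.37%). A match describes the letters and is not a binding site.

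**Figure D4:**
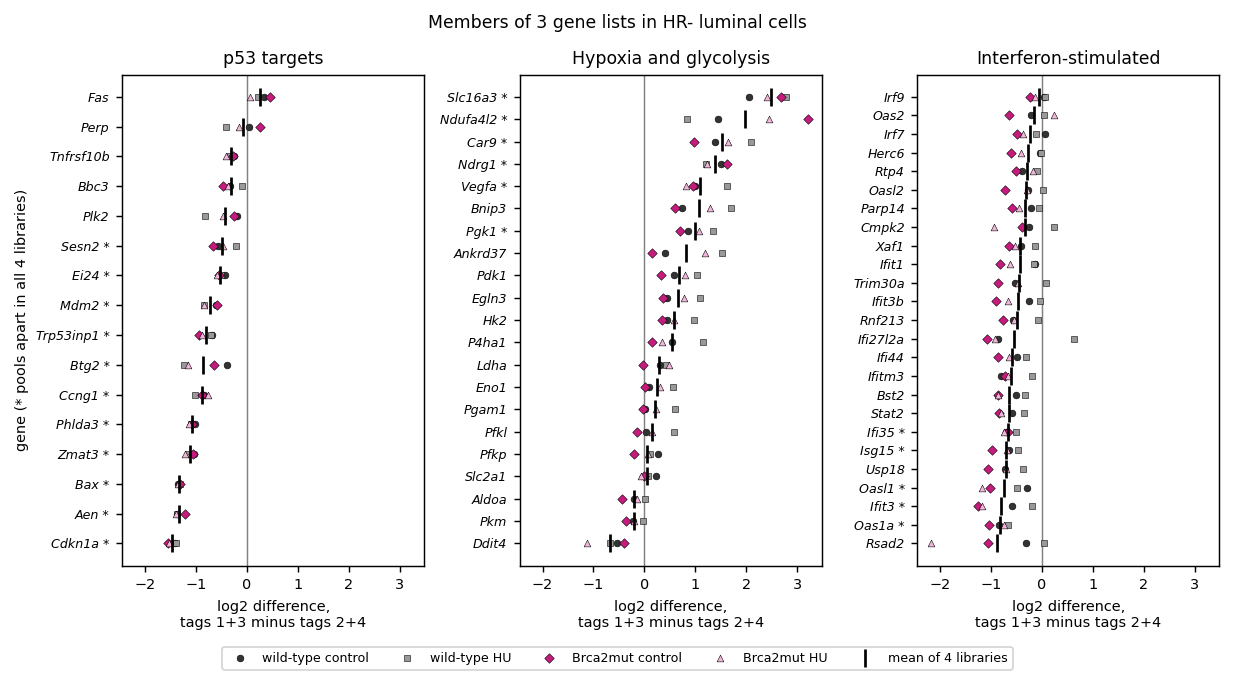
Difference (horizontal axis, log2, tags 1 and 3 minus tags 2 and 4, HR- luminal pools) of the tested members of the p53 and hypoxia lists and of interferon-stimulated genes. Points are the 4 libraries, vertical ticks their mean, and an asterisk marks a separated gene. By the mean, of the p53 targets 15 of 16 lie below 0, and of the hypoxia and glycolysis genes 18 of 21 lie above 0. Of all 7659 genes tested, 2222 lie above 0.

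Many of the p53 targets were also higher with HU, inside both sides. Pools of the same tag and genotype were compared between HU and control, 8 pairs in all, and 11 of the 16 targets were higher with HU in 8 of 8 pairs, against 607 of 7659 genes (7.93%). They were Aen, Bax, Ccng1, Cdkn1a, Ei24, Mdm2, Perp, Phlda3, Sesn2, Trp53inp1 and Zmat3. The list median of HU minus control was 0.28 in wild-type and 0.35 in Brca2mut/WT pools, and for Cdkn1a 0.42 and 0.50. The difference between the sides in Cdkn1a, 1.47, was larger than that between treatments, and tags 1 and 3 with HU (164 to 203 CPM) stayed below tags 2 and 4 without it (320 to 500 CPM). Tags were matched between libraries by their order in the files, with no key, and the tags of a library are not replicates of the treatment. With 1 library per condition, HU and library cannot be told apart.

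**Figure D5:**
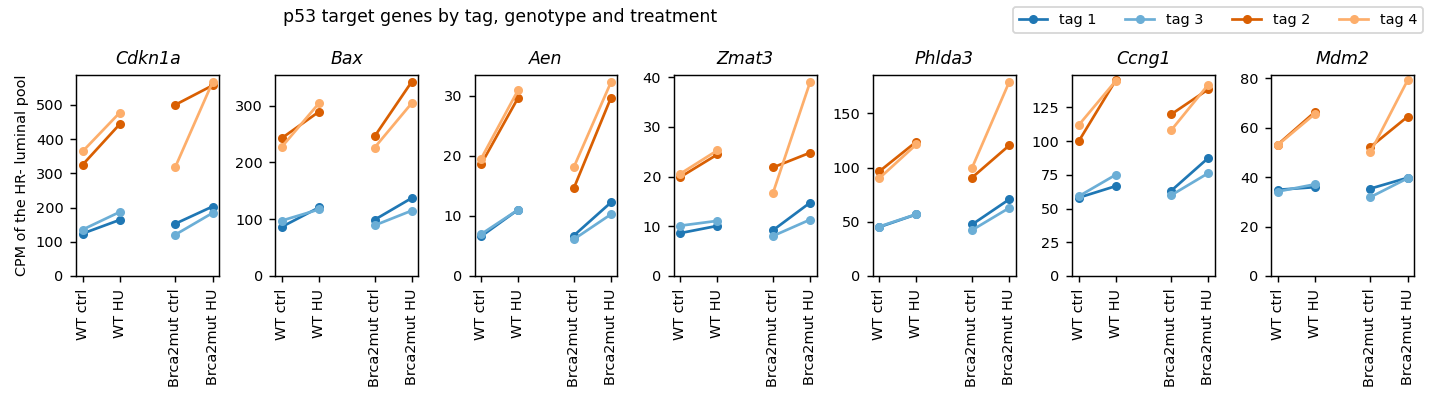
Level of 7 p53 targets (vertical axis, CPM from 0) in the 16 HR- luminal pools, each point a pool, with lines joining control and HU of the same tag and genotype. Cdkn1a sits at 121 to 203 CPM in tags 1 and 3 and 320 to 566 CPM in tags 2 and 4, and in each tag it is higher with HU than in the control of the same genotype.

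Most genes of hypoxia and glycolysis went the other way in their mean difference, though not in tag 2 of every library. All 21 listed genes were tested, and 6 were separated, all towards tags 1 and 3 (all genes 6.59%), with a list median of 0.58 (0.73 and 9 separated under TMM). Slc16a3, the lactate exporter MCT4 (ENSMUSG00000025161, chr11:120948480-120960868, plus strand, mm10), was at 21.4 to 44.4 CPM (median 29.4) in tags 1 and 3 and 1.26 to 10.5 CPM (median 3.89) in tags 2 and 4, with no overlap and a difference of 2.48 ± 0.33. Car9, the hypoxia-induced carbonic anhydrase, was at 200.4 to 316 CPM against 50.8 to 237 CPM, separated in each library but overlapping over all pools (1.53 ± 0.47). Ndrg1 was apart in all 16 pools (1.39 ± 0.20), and Ndufa4l2 (1.99 ± 1.05), Vegfa, the angiogenic growth factor (1.10 ± 0.36), and Pgk1, a glycolytic kinase (1.0 ± 0.28), were separated.

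The list was not uniform. Ddit4, which restrains mTORC1, was at -0.68, Aldoa at -0.20 and Pkm at -0.20, and the glucose transporter Slc2a1 at 0.05. List medians by library were 0.44, 0.97, 0.15 and 0.57, and tag 2 of Brca2mut/WT control lay above tags 1 and 3 (median of tags 1 and 3 minus tag 2 -0.21). With HU, 6 of the 21 genes (Ankrd37, Egln3, Eno1, Hk2, P4ha1 and Pdk1) were lower in 8 of 8 same-tag pairs, against 321 of all genes (4.19%), with list medians of -0.30 and -0.49 in wild-type and Brca2mut/WT pools. The 6 genes separated between the sides were lower with HU in most pairs too. Of the separated genes, Slc16a3, Car9, Vegfa and Pgk1 were higher with HU in only 1 of 8 pairs. Ndrg1 and Ndufa4l2 were higher in 2 of 8.

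The windows of Slc16a3, chr11:120948817-120949116 on the plus strand, and Car9, chr4:43506776-43507075 on the plus strand, are shown as separated genes that hold the core of the hypoxia response element, ACGTG, on either strand, in capitals.
Slc16a3: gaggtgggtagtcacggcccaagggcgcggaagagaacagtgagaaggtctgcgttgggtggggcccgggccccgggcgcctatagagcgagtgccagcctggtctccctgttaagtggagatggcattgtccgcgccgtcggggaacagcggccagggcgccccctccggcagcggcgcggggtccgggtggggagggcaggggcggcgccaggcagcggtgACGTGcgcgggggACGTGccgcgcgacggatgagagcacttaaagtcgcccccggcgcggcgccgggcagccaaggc
Car9: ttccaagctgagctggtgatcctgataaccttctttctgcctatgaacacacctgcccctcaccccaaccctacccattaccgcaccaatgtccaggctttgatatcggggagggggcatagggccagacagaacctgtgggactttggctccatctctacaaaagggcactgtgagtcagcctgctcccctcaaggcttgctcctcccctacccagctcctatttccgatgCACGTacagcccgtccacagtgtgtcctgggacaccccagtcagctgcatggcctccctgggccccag
The core occurred in 12 of the 19 listed genes with a window, in 3 of the 4 separated ones (Pgk1, Slc16a3 and Car9), and in 19.7% of all windows.

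Outside wild-type HU, interferon-stimulated genes were higher in tag 2, and in tag 4 except in Brca2mut/WT HU, unevenly between the tags and the genotypes. Of 26 tested members 6 were separated, among them Ifit3, Isg15, Oas1a, Oasl1 and Ifi35, all towards tags 2 and 4. This is a smaller share than the 29.7% of all genes. All 26 had a negative mean difference (median -0.51), where 2222 of all 7659 genes had a positive one. In wild-type HU the list median of -0.13 lay near the -0.11 of all genes, and 7 of the 26 members were positive. Under TMM Oas1a and Ifi35 were separated, with a list median of -0.35. Ifit3, which binds viral RNA together with its relatives, was at 179 to 256 CPM in tags 1 and 3. In tags 2 and 4 it was at 317 and 352 CPM in wild-type control, 238 and 243 CPM in wild-type HU, 687 and 366 CPM in Brca2mut/WT control and 919 and 250 CPM in Brca2mut/WT HU. The pools overlapped, and the difference was -0.80 ± 0.50. Isg15, a ubiquitin-like modifier, did not overlap, at 448 to 706 CPM against 738 to 1405 CPM (-0.70 ± 0.21).

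In the Brca2mut/WT libraries the list as a whole followed the order of Ifit3. Tags 1 and 3 minus tag 2 gave list medians of -1.07 and -1.25 in Brca2mut/WT control and HU, tags 1 and 3 minus tag 4 gave -0.57 and 0.01, and the library medians of the side difference were -0.40 and -0.13 in wild-type control and HU. Per cell at 5000 UMIs, the median number of UMIs of the 26 genes was 26 to 31 in tags 1 and 3. In tags 2 and 4 it was 47 and 38 in wild-type control and 34 and 33 in wild-type HU. In the Brca2mut/WT control and HU libraries it was 67 and 84 in tag 2 against 39 and 24 in tag 4. The highest interferon level of Brca2mut/WT pools thus sat in tag 2. Of 15 tested MHC class I genes 1, B2m, the light chain, was separated, a smaller share than the 29.7% of all genes, and none was under TMM or DESeq2 size factors. The list median was 0.02 in wild-type HU and -0.42 to -0.59 in the other libraries. In Brca2mut/WT HU it rested on tag 2, as tags 1 and 3 minus tag 2 gave -1.31 and minus tag 4 0.04. B2m was at 1606 to 2150 CPM against 2298 to 6070 CPM (-0.71 ± 0.34), with 5173 and 6070 CPM in tag 2 of the Brca2mut/WT libraries.

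The Ifit3 window, chr19:34583279-34583578 on the plus strand, holds 2 matches to the interferon-stimulated response element, GAAA and GAAA with 2 free bases between them, on the other strand, in capitals.
Ifit3: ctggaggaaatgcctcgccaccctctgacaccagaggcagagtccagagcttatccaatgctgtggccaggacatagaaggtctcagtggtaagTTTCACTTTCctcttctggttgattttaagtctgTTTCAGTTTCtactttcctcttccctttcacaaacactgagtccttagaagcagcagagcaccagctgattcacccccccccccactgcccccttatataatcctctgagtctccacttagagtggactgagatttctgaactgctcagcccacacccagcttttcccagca
The element occurred in 10 of the 20 listed genes with a window, in 3 of the 5 separated ones, and in 3.49% of all windows.

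Interferon-inducible GTPases, which act against intracellular pathogens, had 5 of 9 tested members separated towards tags 2 and 4 (Igtp, Irgm2, Gbp2, Gbp3 and Gbp6; median -0.62), where 29.7% of all genes were, and 3 were under TMM. Igtp and Gbp3 were at -0.86 ± 0.36 and -0.84 ± 0.30. Among 8 tested nucleic acid sensors Tbk1 (-0.48 ± 0.16) and Irf3 (-0.32 ± 0.11) were separated the same way, a share near that of all genes. Of 6 tested chemokines and colony-stimulating factors, Cxcl1 and Cxcl10 were separated towards tags 2 and 4 (median -1.26), also a share near that of all genes. Cxcl10, which attracts T cells, was at 0.148 to 6.73 CPM against 1.49 to 148 CPM, with its highest levels in tag 4 (23.7, 50.2, 21.2 and 148 CPM in the order of libraries above), whereas Ifit3 was higher in tag 2 of the Brca2mut/WT libraries.

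Milk and lipid genes divided. Of 9 tested milk and alveolar genes 4 were separated, all towards tags 1 and 3, where 6.59% of all genes were (Csn1s1, Csn3, Mfge8 and Xdh; median 0.91). Csn3, kappa-casein, was at 20330 to 24198 CPM against 5338 to 16129 CPM with no overlap (0.91 ± 0.37). Of 13 fatty acid genes, Elovl5, Srebf1, Fads1 and Fads2 were separated towards tags 1 and 3 and Acly and Thrsp towards tags 2 and 4 (median 0.14). Of all genes 6.59% and 29.7% were separated in these directions. Fasn, the fatty acid synthase, was at -0.13. Of 20 cholesterol synthesis genes 8 were separated, all towards tags 2 and 4, where 29.7% of all genes were (among them Idi1, Fdft1, Sqle, Cyp51, Msmo1, Hsd17b7 and Sc5d; median -0.50). Msmo1, a sterol demethylation enzyme, was at 24.7 to 37.6 CPM against 41.4 to 79.3 CPM (-0.93 ± 0.22) and Sqle, the squalene epoxidase, at 30.1 to 38.2 CPM against 46.4 to 56.8 CPM (-0.59 ± 0.14), with no overlap in either.

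Of 11 tested S phase genes 5 were separated towards tags 2 and 4 (Mcm7, Pcna, Rrm2, Tyms and Hells; median -0.43), and of 11 G2/M genes 2, Birc5 and Cdc20 (median -0.50), beside 29.7% of all genes. The G2/M share lies below that of all genes. When cells with at least 5 G2/M UMIs were left out, the G2/M median was 0.00 and Mcm7 was the separated gene of the S phase list. That cut counts UMIs of the same G2/M list, so it shrinks the G2/M difference by construction. No conclusion is drawn from that median. Cdc20, an activator of the anaphase-promoting complex, was at 5.72 to 16.6 CPM against 18.8 to 33.9 CPM, and Rrm2, a subunit of the ribonucleotide reductase that HU inhibits, at 7.30 to 17.3 CPM against 13.1 to 58.9 CPM (-1.07 ± 0.51).

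The remaining lists were mixed. Their counts stand beside 6.59% of all genes separated towards tags 1 and 3 and 29.7% towards tags 2 and 4. Of 18 immediate early and heat shock genes Ier3 and Atf3 were separated towards tags 2 and 4 (median -0.20), a smaller share than that of all genes. None of 11 genes of the unfolded protein response was separated (median -0.24). Of 11 antimicrobial and acute phase genes Lcn2, Lbp and Cp were separated towards tags 1 and 3 and Wfdc18 towards tags 2 and 4. The list median of 0.40 held no single direction: it was -0.42 and -0.43 in the wild-type libraries and 1.53 and 0.53 in the Brca2mut/WT ones, and turned to -0.12 without Brca2mut/WT control and -0.06 without tag 2. Lbp, which binds bacterial lipopolysaccharide, was at 115 to 184 CPM against 15.5 to 68.9 CPM (1.78 ± 0.29). Of 8 squamous genes Lgals7 and Sbsn were separated towards tags 1 and 3 and Krt10 towards tags 2 and 4 (median 0.42, which turned to -0.16 without tag 2 and was 0.11 without Brca2mut/WT control). Among 6 ErbB ligands and receptors Egfr was higher in tags 1 and 3 (0.56 ± 0.28) and its ligand Tgfa in tags 2 and 4 (-0.59 ± 0.49). Dhrs3 was the separated gene of 3 tested retinoid genes (0.59 ± 0.28), and H2-Ab1 that of 2 tested MHC class II genes.

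In 4 further lists no member was separated. Matrix and basement membrane genes had a median of 1.55 over 6 tested and contractile genes 0.80 over 6, but the contractile median turned to -0.34 and the matrix median to 0.37 without tag 2. In Brca2mut/WT control and HU the contractile medians were 2.72 and 2.67 against tag 2 and -0.21 and -0.82 against tag 4. Sparc was at 93.0 to 142 CPM against 3.03 to 139 CPM, and Acta2 reached 384 CPM in tag 4 of Brca2mut/WT HU. The luminal progenitor list had a median of -0.05 over 8 genes, which turned positive under TMM (0.10) and DESeq2 size factors (0.09), and the single tested homologous recombination gene, Rad51d, was at -0.17 ± 0.25. Brca2 itself (chr5:150522630-150570329, plus strand, mm10) was at 3.25 to 5.99 CPM in the 16 pools, below the limit of 10 CPM, with a difference of 0.23 ± 0.08. Xist, the RNA that silences 1 X chromosome, was apart in all pools, at 865 to 1147 CPM in tags 1 and 3 and 633 to 839 CPM in tags 2 and 4 (0.43 ± 0.06).

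Over all cells of a tag, 547 of 7822 genes (6.99%) were separated with the higher level in tags 1 and 3 and 2556 (32.7%) with the higher level in tags 2 and 4. TMM gave 1216 and 1252, and DESeq2 size factors 1129 and 1325, so that 17.6% of separated genes in CPM, 49.3% with TMM and 46.0% with DESeq2 size factors were higher in tags 1 and 3. Of these, 398 and 1931 were also separated the same way in HR- luminal cells, 72.8% and 75.5% of the all-cell genes and 78.8% and 85.0% of the HR- luminal genes. Fcgbp, Ecrg4, Csn1s1, Apod and Plb1 again led tags 1 and 3. Tspan1, a tetraspanin, led tags 2 and 4 at 7.13 to 21.6 CPM against 38.5 to 581 CPM (-3.33 ± 0.53). Inside the HR- luminal limits it was not separated, with a mean difference of -3.01 ± 0.98. Gsta4, a glutathione transferase, was at -2.08 ± 0.93 over all cells and -0.76 ± 0.27 in HR- luminal cells, where it was not separated. The cell types differ between these pools, with more Krt14-high and Areg-high cells in tag 4 of every library and in tag 2 of the wild-type libraries, and fewer Krt14-high cells in tag 2 of the Brca2mut/WT libraries.

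Cells over the Krt14 limit offer a second cell population, in the 14 of 16 pools with at least 50 such cells. Tag 2 of the Brca2mut/WT libraries was left out, with 8 and 19 cells, so tag 4 alone stood for tags 2 and 4 there. Among all genes, 38.9% of those with a positive and 40.2% of those with a negative difference in HR- luminal cells had the same sign in every library in Krt14-high cells. Of the 12 genes highest in tags 1 and 3 in HR- luminal cells, 9 did (median 1.32 against 2.35 in HR- luminal cells), and of the 12 highest in tags 2 and 4, 4 did (-0.29 against -2.03), no larger a share than among all genes. Of the 16 p53 targets 10 did (median -0.40 against -0.76), with Cdkn1a at -0.72, Bax at -0.74, Aen at -1.07 and Zmat3 at -1.10. Of the 21 hypoxia and glycolysis genes 12 did (median 0.53 against 0.58). Fcgbp itself was at 12.3 to 211 CPM in the Krt14-high pools of tags 1 and 3 and 6.08 to 41.0 CPM in those of tags 2 and 4, with a difference of 1.83 ± 0.35.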

How the data were processed

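Single-cell RNA and antibody tag UMI counts of 4 libraries, 1 per condition, were deposited by the authors as raw counts per gene and barcode, with 32285 genes and 4 tags. Per the labels and the methods, the authors aligned reads to mm10 with Cell Ranger 6.0.2 (the matrix headers name 6.1.1) and analysed them with Seurat 4.0 in R 4.1.3. The study states more cells after filtering than the 33268 barcodes analysed here, of which 17360 passed the limits. The 4 tag features were kept out of gene totals. Tags, limits and gene lists were chosen with earlier results of these data known. The labels do not say what the 2 replicates in each label are, so spreads over libraries are spreads between conditions.

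Pools were summed in Python 3.11.15 and scaled to CPM, with a pseudocount of 1 and genes of at least 10 CPM on average. No count model was fitted and no p-value computed, since the pairing of tags was chosen on these values. Among genes separated with at least 20 CPM, those named had the 12 largest differences either way in HR- luminal cells and the 5 largest either way in all cells. Up to 3 of each list, Brca2 and cell type markers were named also where they were not separated. Other genes named above were further members of a list, separated or not. Some of these were chosen after their values were seen (Ddit4, Aldoa, Pkm, Slc2a1, Fasn). Predicted genes (24 and 44 of the separated) were not named, and some members of the lists are not reported here by name. Shares were compared after thinning cells to 5000 UMIs; 1 to 41 HR- luminal cells a pool, under that depth, were left out. The tag ratio drops cross-tag doublets only where the 2 tags lie within 3-fold of each other. Tag loads were uneven, with median top-tag UMIs of 1723 in tag 3 and 615 in tag 4 of wild-type control. How many cross-tag doublets passed was not tested. Same-tag doublets remained, apart from an alternative that left out the highest 6% of Scrublet scores (scanpy 1.11.5). Alternatives used TMM (edgeR 4.0.16) and size factors (DESeq2 1.42.0) in R 4.3.3. The counting of separated genes was checked on simulated counts. Intervals are exact Clopper-Pearson. Gene positions are from GENCODE on GRCm38, promoters from RefSeq GRCm38.p6.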

Additional observations from a re-analysis of the deposited data

Results flagged for a closer look

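In 6 named or listed genes 1 library stood apart from the other 3 in its side difference (log2, HR- luminal pools), by a gap test that chance alone passes in about 1 in 20 groups of 4. At that rate several gaps are expected among the named and listed genes, so these 6 are a description only. Gsta4 was at -0.36 in wild-type control and -0.84 to -0.93 in the others. Igtp was at -0.32 in wild-type HU and between -1.01 and -1.06 elsewhere, and H2-Q7, an MHC class I gene, at 0.27 in wild-type HU and -1.05 to -1.25 elsewhere. Aldh1a3 was at -0.73 in wild-type HU and 0.88 to 1.18 elsewhere. Cyp51 was at -1.29 in wild-type control and -0.67 to -0.72 elsewhere. Aen was at -1.22 in Brca2mut/WT control and -1.37 to -1.39 elsewhere, a gap of small size.

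The HR- luminal share of tag 2 minus the mean of tags 1 and 3 was -22.5 and -36.4 points in the wild-type libraries and 7.96 and 5.10 points in the Brca2mut/WT libraries, a difference of 35.9 points between the genotypes. All libraries of one genotype lay on one side of 0, and the difference was not tested.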

How the results depend on the processing

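The HR- luminal share difference kept its direction, and over it and the counts of separated genes 95 of 118 recomputed values stayed within 1.5 times or 1 SD. In HR- luminal cells the 505 genes higher in tags 1 and 3 became 948 with no filter on low genes, 211 at 50 CPM, 1169 with TMM, 1060 with DESeq2 size factors, 916 without tag 2, 818 without tag 4 and 186 with separate Poisson intervals, an alternative added after the data were seen. The 2271 higher in tags 2 and 4 became 943 at 50 CPM, 1100 with TMM, 1216 with DESeq2 size factors, 1387 after thinning and 655 with separate Poisson intervals. Over all cells 547 became 1004 with no filter, 226 at 50 CPM, 1216 with TMM, 1129 with DESeq2 size factors and 1354 without tag 2, and 2556 became 973 at 50 CPM, 1252 with TMM, 1325 with DESeq2 size factors and 1677 after thinning. List members separated numbered 72, with 30 at 50 CPM and 121 without tag 4. Fewer genes or pools enter under the filters and the omitted tags, and the cause of the others was not tested.

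Leaving out 1 library in turn gave 529 to 696 and 2450 to 2624 genes in HR- luminal cells, 561 to 778 and 2675 to 2949 over all cells, 74 to 100 list members and share differences of 19.6 to 28.3 points. Of 460 list medians 449 and of 2191 gene differences 2185 kept their sign. Birc5 turned to 0.018 when cycling cells were left out, but Birc5 is itself among the G2/M genes that set this cut. No paired analysis between conditions was possible because each condition is 1 library, numbered in accession order, so the conditions share fewer than 2 replicate numbers. The side differences were taken within each library, and the results come from no test. The smallest pool, 3691377 UMIs, limits genes near 10 CPM.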

Other observations

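Evenness over the libraries was not limited to p53 targets. Of the 43 separated genes that differed by more than 0.7 with an SD over libraries of at most 0.1, chosen after their values were seen, Txnrd1, the thioredoxin reductase, was at -0.91 ± 0.04, Ddit4l, a relative of the mTORC1 inhibitor Ddit4, at -1.10 ± 0.03, and Mgmt, which removes alkyl groups from guanine, at -0.99 ± 0.07, all higher in tags 2 and 4.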
